A study of Homo sapiens with 12 samples.

Results

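Expression of 10 genes linked to progenitor-like states of prostate epithelium was followed across 3 related human prostate adenocarcinoma cell lines. The genes are SOX9, SOX4, SOX12, KLF4, KLF5, MYC, BMI1, PROM1, LIN28B and CD44. They were chosen by name, and all 10 were found by their gene identifiers among the 57992 entries of the count table. Poly(A) RNA was sequenced from MR49F, labelled resistant to the antiandrogen enzalutamide, and from C4-2 and LNCaP, both labelled sensitive to it, with 3 biological replicates of each line. Both MR49F, selected under enzalutamide, and C4-2, a castration-resistant subline, derive from LNCaP, which responds to androgen. The labels also name a resistant C4-2R line, which was not analysed here. Each group is 1 established line and no drug exposure at harvest is given, so the comparisons set lines side by side and p-values measure the spread between cultures of those lines.

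SOX9, SOX4 and SOX12 are transcription factors with a high-mobility-group DNA-binding domain, and SOX9 is required for the budding of the developing prostate. KLF4 and KLF5 are zinc-finger factors that bind GC-rich and CACCC-containing DNA and often act on the same genes with different outcomes. MYC dimerizes with MAX, binds E-boxes and drives ribosome biogenesis and growth. BMI1 is a subunit of Polycomb repressive complex 1, which ubiquitinates histone H2A. LIN28B blocks maturation of the let-7 microRNAs, while the hyaluronan receptor CD44 and the membrane protein PROM1 are surface markers used to isolate prostate progenitor cells.

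Promoter sequences, 250 bases before to 50 after an annotated start, were held for 8 of the 10 genes (RefSeq, GRCh38.p14), the exceptions being SOX9 and MYC. The 4 below are shown because SOX12, KLF4 and KLF5 moved in opposite directions in MR49F and C4-2, while SOX4 was at almost the same level in both. The fall of KLF5 in C4-2 was uncertain, as described below. Capitals mark matches on either strand to CACGTG (E-box), GGGCGG (GC box), CACCC and AACAAT (a SOX core). No matches overlapped in these windows.
SOX4 promoter, chr6:21593501-21593800, plus strand: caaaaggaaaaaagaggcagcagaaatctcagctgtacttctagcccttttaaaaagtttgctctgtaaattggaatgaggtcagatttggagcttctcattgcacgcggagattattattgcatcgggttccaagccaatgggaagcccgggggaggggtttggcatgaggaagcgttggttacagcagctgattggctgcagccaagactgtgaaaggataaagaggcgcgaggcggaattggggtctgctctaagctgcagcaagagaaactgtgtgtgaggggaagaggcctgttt
SOX12 promoter, chr20:325302-325601, plus strand: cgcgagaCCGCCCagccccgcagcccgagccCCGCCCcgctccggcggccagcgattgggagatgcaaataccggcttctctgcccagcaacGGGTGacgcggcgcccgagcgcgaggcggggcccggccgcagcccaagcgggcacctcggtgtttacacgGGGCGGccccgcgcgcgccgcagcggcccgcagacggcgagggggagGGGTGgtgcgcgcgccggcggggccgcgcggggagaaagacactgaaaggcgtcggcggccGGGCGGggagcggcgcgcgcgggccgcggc
KLF4 promoter, chr9:107489720-107490019, minus strand: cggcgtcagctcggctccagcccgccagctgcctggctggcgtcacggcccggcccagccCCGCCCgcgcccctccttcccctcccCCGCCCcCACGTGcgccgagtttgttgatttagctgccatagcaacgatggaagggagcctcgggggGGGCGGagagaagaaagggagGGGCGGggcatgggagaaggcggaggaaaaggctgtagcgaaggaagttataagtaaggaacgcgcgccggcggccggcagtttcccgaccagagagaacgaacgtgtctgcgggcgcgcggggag
KLF5 promoter (the more CpG-rich of 2 entries), chr13:73058755-73059054, plus strand: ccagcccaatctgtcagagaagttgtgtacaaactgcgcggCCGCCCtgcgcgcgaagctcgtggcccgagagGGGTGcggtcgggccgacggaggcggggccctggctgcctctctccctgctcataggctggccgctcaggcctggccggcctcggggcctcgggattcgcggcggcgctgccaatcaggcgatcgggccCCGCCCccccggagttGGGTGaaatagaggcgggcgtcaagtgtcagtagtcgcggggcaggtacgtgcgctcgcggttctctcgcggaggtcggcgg

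The SOX12 window held 54 CpG dinucleotides, 4 GC boxes and 2 CACCC motifs. The KLF4 window held 33 CpG dinucleotides, 4 GC boxes and 1 E-box, and the KLF5 window 37 CpG dinucleotides, 2 GC boxes and 2 CACCC motifs. The SOX4 window held 8 CpG dinucleotides and none of these 4 motifs. The KLF5 window not shown (73054726 to 73055025) held 4 CpG dinucleotides, 1 CACCC motif and 1 SOX core. The printed SOX4, KLF4 and KLF5 windows lie inside the gene spans given below, so other starts of these genes are not described. Across 35116 promoter windows of the same length the median was 14 CpG dinucleotides, and 45.0% held a GC box, 59.9% a CACCC motif, 7.3% the E-box and 10.1% the SOX core. These matches describe the letters only.

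Total gene counts were 6990461 to 9375912 in 8 libraries and 42770072 in C4-2 replicate 1, which was sequenced more deeply than the rest. The chi-square per degree of freedom was higher for C4-2 replicate 1 against C4-2 replicates 2 and 3 (24.0 and 9.96) than between C4-2 replicates 2 and 3 (5.84). This measure can rise with depth, so it does not show by itself that C4-2 replicate 1 agreed less well, and the part of depth was not tested. Levels are in CPM, the count per 1000000 reads of a library whose size was scaled by the TMM method, and a gene was called changed at a Benjamini-Hochberg adjusted p under 0.05 in edgeR's quasi-likelihood test over 15407 tested genes. The 10 listed luminal markers of prostate epithelium all had counts in every line, and their summed level was 9034 to 9302 CPM in MR49F, 7234 to 8293 CPM in C4-2 and 5888 to 6066 CPM in LNCaP. Basal markers summed to at most 2.41 CPM in MR49F, 2.66 CPM in C4-2 and 1.79 CPM in LNCaP, with the basal keratin KRT5 at 0 counts in all 9 libraries. Fibroblast and muscle markers summed to 7.72 to 9.96 CPM in MR49F, 22.1 to 28.3 CPM in C4-2 and 28.2 to 31.7 CPM in LNCaP, with COL1A2 at 0 throughout. Neuroendocrine markers summed to 5.19 to 5.94 CPM in MR49F, 2.15 to 4.44 CPM in C4-2 and 2.05 to 3.17 CPM in LNCaP, with INSM1 at 0. Endothelial markers, with CDH5 at 0, summed to 0.594 to 0.807 CPM in MR49F, 2.72 to 3.36 CPM in C4-2 and 3.30 to 4.83 CPM in LNCaP. Immune markers, with CD3E at 0, summed to at most 0.576 CPM in MR49F, 1.75 CPM in C4-2 and 0.454 CPM in LNCaP. The part of these marker levels in the results that follow was not tested.

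Of the 10 genes, 7 had enough counts to be tested. SOX9 and KLF4 were far lower in MR49F than in LNCaP and several-fold higher in C4-2. MYC and SOX12 did the reverse, higher in MR49F and lower in C4-2, as did KLF5, whose fall in C4-2 was at the edge of the threshold. BMI1 was higher and SOX4 slightly lower in both derivatives. PROM1, LIN28B and CD44 were at or near 0 counts in all 3 lines.

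**Figure D1:**
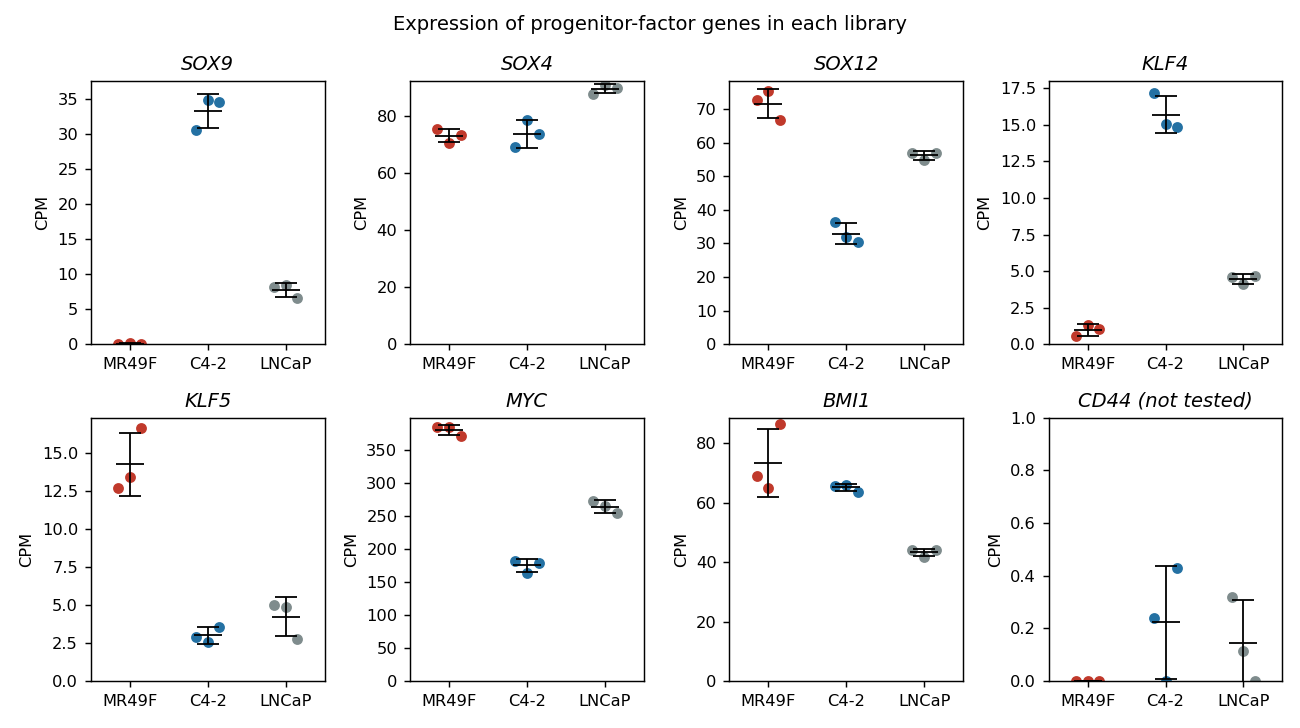
Each panel plots the CPM of 1 gene in each of the 9 libraries (points) with the mean and 1 SD of the 3 replicates (lines), for MR49F, C4-2 and LNCaP. SOX9 and KLF4 are lowest in MR49F and highest in C4-2, MYC and SOX12 are highest in MR49F and lowest in C4-2, and CD44 stays below 1 CPM everywhere. KLF5 is highest in MR49F, and its C4-2 points overlap those of LNCaP.

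Against LNCaP, all 7 tested genes were called in MR49F, 4 higher and 3 lower, where 47% of all tested genes were called (24.1% higher and 22.8% lower). All 7 were also called in C4-2, 3 higher and 4 lower, against a background of 49.7% (26.2% higher and 23.5% lower), but the KLF5 call there (adjusted p = 0.0492) was lost in 11 of 16 other settings, which leaves 6 of 7. In MR49F against C4-2, 3 genes were higher, 2 were lower and 2 had no call, where 61% of all tested genes were called (29.9% higher and 31.1% lower). The replicates did not overlap for 7 of the 7 genes in MR49F against LNCaP (59.8% of all tested genes), for 6 in C4-2 against LNCaP (55.7%) and for 5 in MR49F against C4-2 (61.9%). Changes of more than 2-fold were called for SOX9, KLF4 and KLF5 in MR49F against LNCaP, where 13.2% of tested genes passed the same limit, 5.65% upward and 7.53% downward. In C4-2 against LNCaP they were SOX9 and KLF4, again with 13.2% of tested genes, 9.12% upward and 4.08% downward. In MR49F against C4-2 they were SOX9, SOX12, KLF4, KLF5 and MYC, with 18.6% of tested genes, 6.46% upward and 12.1% downward. The 3 comparisons share libraries and are not independent of each other.

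**Figure D2:**
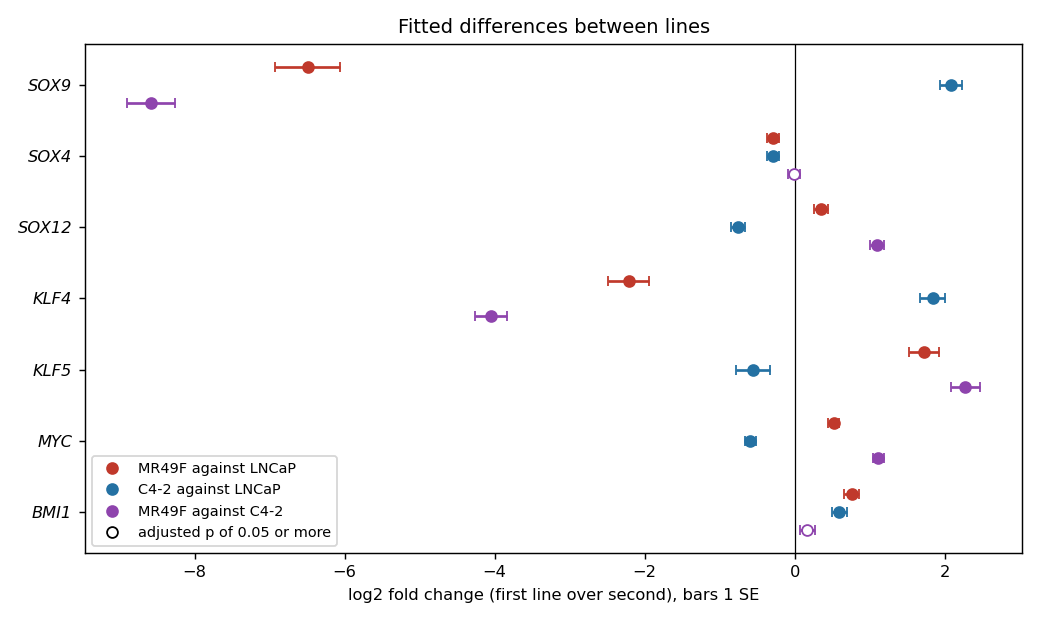
Fitted log2 fold changes (x axis, first line over second) of the 7 tested genes, with bars of 1 SE, for MR49F against LNCaP (red), C4-2 against LNCaP (blue) and MR49F against C4-2 (purple); open points had an adjusted p of 0.05 or more. The red and blue points of SOX9, SOX12, KLF4, KLF5 and MYC lie on opposite sides of 0, and the MR49F values of SOX9 rest on 2 counts.

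SOX9 (ENSG00000125398) lies on the plus strand of chromosome 17 at 72121020 to 72126420 (GRCh38, GENCODE 29). SOX9 had 0, 0.238 and 0 CPM in MR49F, 30.6, 34.9 and 34.6 CPM in C4-2, and 8.12, 8.52 and 6.62 CPM in LNCaP. The 3 lines did not overlap, and the order of levels was C4-2, LNCaP, MR49F, with each neighbouring pair called. MR49F held 2 reads of SOX9 in all, both in replicate 2, against 199 in LNCaP, a ratio of 103-fold lower in MR49F (95% exact binomial interval 28.1 to 854). In bulk RNA, fewer cells with a transcript and less of it per cell cannot be told apart. The fitted log2 fold change of SOX9 in MR49F against LNCaP was -6.49 (SE 0.427, adjusted p = 8.24e-11), but without MR49F replicate 2, which leaves 0 counts in MR49F, the fit gave -9.61, so its size is set by those reads. SOX9 was 4.24-fold higher in C4-2 than in LNCaP (log2 2.08, SE 0.147, adjusted p = 2.69e-10). In MR49F against C4-2 the ratio of SOX9 was 416-fold lower (2 against 1791 counts, interval 115 to 3434), with an adjusted p of 4.09e-15. The overlapping antisense transcript SOX9-AS1 had 0 counts in MR49F, 9 in C4-2 and 0 in LNCaP, and the strand setting of the counting is not given in the sources used here.

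SOX4 (ENSG00000124766, chromosome 6, 21592768 to 21598619, plus strand), a SOX factor active in progenitor cells of many tissues, had 75.3, 70.5 and 73.3 CPM in MR49F, 68.9, 78.6 and 73.5 CPM in C4-2, and 87.7, 90.9 and 89.7 CPM in LNCaP. LNCaP was highest and did not overlap with either derivative, while MR49F and C4-2 overlapped. SOX4 fell by 0.29 on the log2 scale in MR49F against LNCaP (SE 0.0816, adjusted p = 0.00591) and by the same amount in C4-2 against LNCaP (SE 0.0808, adjusted p = 0.00595). Between MR49F and C4-2 the log2 difference of SOX4 was -0.01 (95% interval -0.18 to 0.16, adjusted p = 0.957), and its sign turned when MR49F replicate 2 or C4-2 replicate 2 was left out (0.02 and 0.03). An antisense gene without a symbol overlaps SOX4, so its counts carry the same doubt about strand.

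SOX12 (ENSG00000177732, chromosome 20, 325595 to 330224, plus strand), a relative of SOX4 in the same subgroup, had 72.8, 75.4 and 66.9 CPM in MR49F, 36.5, 31.9 and 30.5 CPM in C4-2, and 57.0, 54.8 and 57.1 CPM in LNCaP. The lines did not overlap, and every neighbouring pair in the order MR49F, LNCaP, C4-2 was called. SOX12 was 1.27-fold higher in MR49F than in LNCaP (log2 0.35, SE 0.0906, adjusted p = 0.00344). SOX12 fell by 0.75 on the log2 scale in C4-2 against LNCaP (SE 0.0934, adjusted p = 1.17e-06), and in MR49F against C4-2 it was 2.14-fold higher (log2 1.10, SE 0.0922, adjusted p = 2.15e-09). NRSN2-AS1, which overlaps SOX12 on the other strand, averaged 5.02 CPM in MR49F, 8.15 CPM in C4-2 and 8.76 CPM in LNCaP. NRSN2-AS1 moved the other way from SOX12 in MR49F against LNCaP (log2 -0.80, adjusted p = 0.00264) and had no call in C4-2 against LNCaP (log2 -0.15, adjusted p = 0.509).

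Other SOX genes were scarce: 3 of 16 listed were tested, and 5 of 16 had 0 counts in all 9 libraries. None of the 3 was called in MR49F against LNCaP (median log2 -0.15, against 0.01 over all tested genes), 1 was higher in C4-2 against LNCaP (median 0.25, all genes 0.00) and 1 was lower in MR49F against C4-2 (median -0.40, all genes 0.00). Among all tested genes the shares higher and lower were 24.1% and 22.8%, 26.2% and 23.5%, and 29.9% and 31.1% in the same order. Without LNCaP replicate 1, 1 of the 3 SOX genes was higher in MR49F against LNCaP. The lower call in MR49F against C4-2 ended without MR49F replicate 1 or 2, C4-2 replicate 1 or 3, or any LNCaP replicate. SOX13, the most abundant without a call against LNCaP and the gene called lower in MR49F against C4-2, averaged 18.3 CPM in MR49F, 21.7 CPM in C4-2 and 20.4 CPM in LNCaP.

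Of 15 listed SOX9 targets and partners, 9 were tested, among them 3 of the 9 cartilage matrix genes that are classical SOX9 targets (COL9A2, COL9A3 and COL11A2). In MR49F against LNCaP 2 of the 9 were higher and 2 lower (median log2 -0.08), in C4-2 against LNCaP 5 were higher and 0 lower (median 0.29), and in MR49F against C4-2 1 was higher and 6 lower (median -0.44). Shares higher and lower over all tested genes were 24.1% and 22.8%, 26.2% and 23.5%, and 29.9% and 31.1% in the same order. The 5 higher calls in C4-2 became 3 without LNCaP replicate 1. The 1 higher call in MR49F against C4-2 ended without MR49F replicate 3, C4-2 replicate 1 or C4-2 replicate 3. LEF1, a Wnt-pathway factor that partners beta-catenin, had 12.5, 11.8 and 14.3 CPM in MR49F, 8.81, 11.9 and 9.73 CPM in C4-2, and 2.67, 2.61 and 2.34 CPM in LNCaP. LEF1 was higher in MR49F (log2 2.33, SE 0.189, adjusted p = 2.45e-09) and in C4-2 (log2 1.94, SE 0.190, adjusted p = 3.73e-08) than in LNCaP, although SOX9 itself moved in opposite directions. TCF4 was higher in both as well, by 1.04 in MR49F and 2.07 in C4-2 on the log2 scale, while TCF7L2 fell by 0.55 in MR49F. TCF4 (ENSG00000196628) is a different gene from the Wnt-pathway factor TCF7L2 (ENSG00000148737), and its place among SOX9 partners is uncertain. It is counted among the 5 higher calls in C4-2. CTNNB1, which encodes beta-catenin, had no call against LNCaP (log2 -0.15 in MR49F and 0.03 in C4-2), but was called lower in MR49F without C4-2 replicate 1 or 2.

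KLF4 (ENSG00000136826, chromosome 9, 107484852 to 107490482, minus strand), a reprogramming factor that restrains proliferation in many epithelia, had 0.547, 1.31 and 1.04 CPM in MR49F, 17.2, 15.1 and 14.9 CPM in C4-2, and 4.59, 4.09 and 4.69 CPM in LNCaP. These rest on 25 counts in MR49F, 938 in C4-2 and 113 in LNCaP, and the lines did not overlap. The order C4-2, LNCaP, MR49F is that of SOX9. KLF4 fell by 2.21 on the log2 scale in MR49F against LNCaP (SE 0.274, adjusted p = 1.20e-06) and was 3.58-fold higher in C4-2 than in LNCaP (log2 1.84, SE 0.163, adjusted p = 9.21e-09). In MR49F against C4-2 the log2 difference of KLF4 was -4.05 (SE 0.217, adjusted p = 1.72e-12).

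KLF5 (ENSG00000102554, chromosome 13, 73054976 to 73077542, plus strand), a factor of basal and intestinal progenitor cells that promotes proliferation, ran opposite to KLF4. KLF5 had 12.7, 13.4 and 16.6 CPM in MR49F, 2.86, 2.53 and 3.58 CPM in C4-2, and 5.02, 4.89 and 2.76 CPM in LNCaP. MR49F stood above the other lines, and LNCaP replicate 3 lay within the range of C4-2. KLF5 was 3.31-fold higher in MR49F than in LNCaP (log2 1.72, SE 0.195, adjusted p = 3.21e-07) and 4.85-fold higher than in C4-2 (log2 2.28, SE 0.191, adjusted p = 2.25e-09). In C4-2 against LNCaP, KLF5 fell by 0.55 on the log2 scale (SE 0.227, adjusted p = 0.0492), a call that was lost in 11 of 16 other settings, with an adjusted p of up to 0.227 and log2 values of -0.76 to -0.41. It was lost without MR49F replicate 1 or 2, C4-2 replicate 1 or 2, or LNCaP replicate 1 or 2. KLF4 and KLF5 overlap no other annotated gene.

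Other KLF and SP genes were called in both directions in each comparison. Of 19 listed, 13 were tested, with 5 higher and 1 lower in MR49F against LNCaP (median log2 0.14), 4 higher and 2 lower in C4-2 against LNCaP (median 0.01), and 5 higher and 2 lower in MR49F against C4-2 (median 0.12). Across all tested genes the shares higher and lower were 24.1% and 22.8%, 26.2% and 23.5%, and 29.9% and 31.1% in the same order. The list's lower count in MR49F against LNCaP became 2 without MR49F replicate 3 and 3 without C4-2 replicate 1 or 2. Its higher count in C4-2 against LNCaP became 2 without C4-2 replicate 3 or LNCaP replicate 1 or 3. Its lower count in MR49F against C4-2 became 1 without MR49F replicate 1 or 3 or LNCaP replicate 2. KLF7, a family member best known from neurons, had 0.109, 0.119 and 0 CPM in MR49F, 23.1, 32.3 and 27.9 CPM in C4-2, and 4.49, 5.91 and 3.86 CPM in LNCaP. KLF7 was therefore near 0 in MR49F and higher in C4-2 than in LNCaP (5.68-fold, adjusted p = 2.01e-10), in the same order of lines as SOX9 and KLF4. Its MR49F level, 2 reads against 122 in LNCaP, gave a ratio of 62.9-fold lower (interval 17.1 to 526) and is named because of its value, outside the naming rule. KLF6, a broadly expressed family member, averaged 28.4 CPM in MR49F against a mean of 11.9 in LNCaP (log2 1.25, SE 0.138, adjusted p = 2.44e-07), and KLF15, a metabolic regulator, was higher in MR49F by 0.94. KLF11 was higher by 0.47 on the log2 scale in C4-2 against LNCaP, where KLF9 and SP1 fell by 0.50 and 0.35. SP3 had no call in either (log2 -0.21 in MR49F and -0.07 in C4-2), but was called lower in MR49F without MR49F replicate 3 or C4-2 replicate 1 or 2.

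MYC (ENSG00000136997, chromosome 8, 127735434 to 127741434, plus strand) had 385, 384 and 371 CPM in MR49F, 182, 164 and 179 CPM in C4-2, and 273, 265 and 254 CPM in LNCaP. The lines did not overlap, and each neighbouring pair in the order MR49F, LNCaP, C4-2 was called. MYC was 1.44-fold higher in MR49F than in LNCaP (log2 0.52, SE 0.0729, adjusted p = 5.39e-06). MYC fell by 0.59 on the log2 scale in C4-2 against LNCaP (SE 0.0736, adjusted p = 1.15e-06). In MR49F against C4-2 it was 2.17-fold higher (log2 1.12, SE 0.0737, adjusted p = 5.01e-11). No annotated gene overlaps MYC.

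Listed MYC targets, genes of ribosome assembly, nucleotide and polyamine synthesis and growth, were followed in the same way. Of 34 tested (35 listed), 13 were higher and 4 lower in MR49F against LNCaP (median log2 0.17), 0 were higher and 20 lower in C4-2 against LNCaP (median -0.22), and 27 were higher and 1 lower in MR49F against C4-2 (median 0.41). The medians over all tested genes were 0.01, 0.00 and 0.00, and the shares called were 24.1% higher and 22.8% lower, 26.2% higher and 23.5% lower, and 29.9% higher and 31.1% lower in the same comparisons. The 13 higher targets in MR49F became 7, 6 and 6 when LNCaP replicates 1, 2 and 3 were left out in turn, when the higher calls among all tested genes also fell, to 18.8%, 19.2% and 19.3%. The 20 lower targets in C4-2 became 13 without C4-2 replicate 3 or LNCaP replicate 3. DKC1, the pseudouridine synthase of the telomerase and snoRNA complexes, had 323, 324 and 327 CPM in MR49F, against 213, 209 and 210.1 CPM in LNCaP. DKC1 was higher in MR49F by 0.63 on the log2 scale (SE 0.0721, adjusted p = 4.36e-07), and WDR43, a factor of small-subunit assembly, by 0.53 (SE 0.0823, adjusted p = 1.84e-05). PPAN and PES1, both needed for the large subunit, went the other way, falling by 0.57 and 0.35 in MR49F. PPAN shares sequence with a readthrough transcript, so its counts are uncertain. UTP20, part of the small-subunit processome, fell by 0.71 in C4-2 against LNCaP (SE 0.109, adjusted p = 1.85e-05). The RNA helicase DDX21 fell there by 0.56 (SE 0.101, adjusted p = 1.18e-04). UTP20 and DDX21 were lowest in C4-2 replicate 1, at 65.5 and 408 CPM, and both falls stayed called in all 16 other settings. The most abundant targets without a call were the nucleolar protein NCL in MR49F (log2 0.17, called without C4-2 replicate 1) and the glycolytic enzyme LDHA in C4-2 (log2 -0.10).

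**Figure D3:**
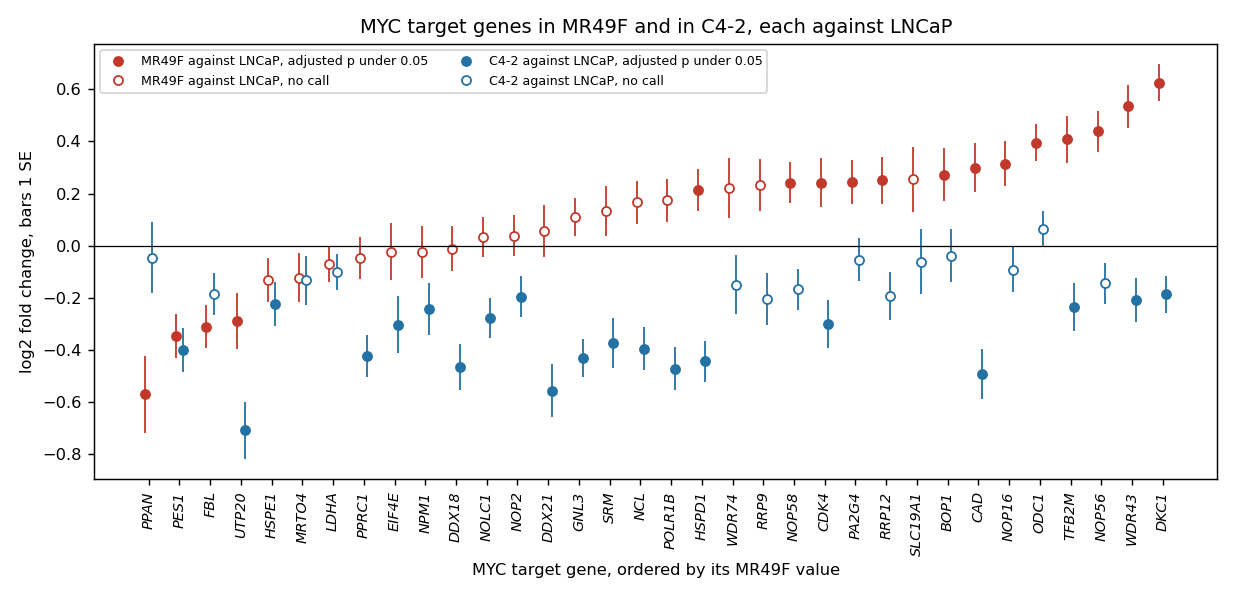
Log2 fold changes against LNCaP (y axis, bars 1 SE) of the 34 tested MYC targets in MR49F (red) and C4-2 (blue), ordered by the MR49F value; filled points were called. Called MR49F points lie above 0 for 13 genes and below it for 4, and all 20 called C4-2 points lie below 0; both sets share the LNCaP libraries.

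The partners and antagonists of MYC were called in both directions in each comparison. Of 15 tested genes of the MYC and MAX network (16 listed), 4 were higher and 1 lower in MR49F against LNCaP (median log2 0.21), 3 higher and 2 lower in C4-2 against LNCaP (median -0.08), and 6 higher and 4 lower in MR49F against C4-2 (median 0.05). For all tested genes the shares higher and lower were 24.1% and 22.8%, 26.2% and 23.5%, and 29.9% and 31.1% in the same order. The network's lower count in MR49F against LNCaP became 2 without C4-2 replicate 1 or 2. MAX, the obligate partner of MYC, was higher in MR49F by 0.37 on the log2 scale (SE 0.0889, adjusted p = 0.00196). MXD4, a MAX-binding repressor, followed the direction of MYC, higher by 0.43 in MR49F (adjusted p = 9.33e-04) and lower in C4-2 (log2 -0.69, adjusted p = 5.73e-06). MNT, another repressor, fell by 0.39 in MR49F. In C4-2 against LNCaP, MXI1 fell by 0.38, while the family members MXD3 and MYCL were higher by 1.10 and 0.87. The MYC cofactor TRRAP had no call in either (log2 -0.22 in MR49F and -0.23 in C4-2). It was called lower in MR49F without C4-2 replicate 1 or 2, and in C4-2 without C4-2 replicate 2 or 3.

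BMI1 (ENSG00000168283, chromosome 10, 22321211 to 22331484, plus strand) had 69.2, 65.0 and 86.45 CPM in MR49F, 65.7, 66.2 and 63.8 CPM in C4-2, and 44.0, 41.8 and 44.1 CPM in LNCaP. Both derivatives lay above LNCaP without overlap, and they overlapped with each other. BMI1 was 1.70-fold higher in MR49F than in LNCaP (log2 0.76, SE 0.101, adjusted p = 2.74e-06) and 1.51-fold higher in C4-2 than in LNCaP (log2 0.59, SE 0.1002, adjusted p = 5.33e-05). Between MR49F and C4-2 the log2 difference was 0.17 (95% interval -0.03 to 0.37, adjusted p = 0.131), which became a call without MR49F replicate 2 (log2 0.26, adjusted p = 0.0415). The COMMD3-BMI1 readthrough that overlaps BMI1 held 1 count over all 9 libraries. COMMD3, the gene just upstream, was higher in C4-2 than in LNCaP (log2 0.76, adjusted p = 2.00e-05) and had no call in MR49F (log2 0.28, adjusted p = 0.0671), a result that became a call without C4-2 replicate 1 or LNCaP replicate 3.

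All 19 other genes listed with Polycomb repressive complex 1 were tested. They include CDKN2A, a target that the complex represses and not a subunit, so the counts and medians below are not of subunits only. In MR49F against LNCaP 6 were higher and 0 lower (median log2 0.07), in C4-2 against LNCaP 5 were higher and 5 lower (median 0.00), and in MR49F against C4-2 8 were higher and 1 lower (median 0.18). All tested genes had shares higher and lower of 24.1% and 22.8%, 26.2% and 23.5%, and 29.9% and 31.1% in the same order. The 6 listed genes higher in MR49F became 3 without LNCaP replicate 1, and 1 was lower there without MR49F replicate 3. The 1 lower in MR49F against C4-2 became 2 without MR49F replicate 3 or C4-2 replicate 1 or 2. PCGF5, which takes the place of BMI1 in variant forms of the complex, averaged 108 CPM in MR49F against a mean of 62.6 in LNCaP (log2 0.78, SE 0.106, adjusted p = 4.02e-06). YAF2, a subunit of variant complexes, was higher in MR49F by 0.39 (adjusted p = 0.0108), a call that ended without MR49F replicate 3 or LNCaP replicate 1 or 2. In C4-2 against LNCaP the chromodomain subunits CBX2 and CBX7 were higher by 0.52 and 0.51, while PHC1 and the BMI1 paralog PCGF2 fell by 0.76 and 0.49. CBX6 in MR49F (log2 0.01) and PHC3 in C4-2 (log2 0.08) had no call, and PHC3 became a higher call without C4-2 replicate 1 (log2 0.29).

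LIN28B (ENSG00000187772, chromosome 6, 104936616 to 105083332, plus strand) had 0 counts in all 9 libraries. A count of 0 allows up to 3 counts over a line, which is 0.114 CPM in MR49F, 0.0531 CPM in C4-2 and 0.118 CPM in LNCaP, so expression below these levels could not be detected. Genes around LIN28B in the let-7 pathway were measured: 12 of 16 were tested, with 3 higher and 0 lower in MR49F against LNCaP (median log2 0.19), 4 higher and 3 lower in C4-2 against LNCaP (median -0.13), and 5 higher and 4 lower in MR49F against C4-2 (median 0.10). The shares higher and lower over all tested genes were 24.1% and 22.8%, 26.2% and 23.5%, and 29.9% and 31.1% in the same order. IGF2BP2 had enough counts to be tested through C4-2 alone, where it had to be high. Of the other 11 tested let-7 pathway genes, 3 were higher and 3 lower in C4-2 against LNCaP. In MR49F against C4-2, 5 of those 11 were higher and 3 lower. Without C4-2 replicate 1 or 2, 2 let-7 pathway genes were lower in MR49F against LNCaP. Without C4-2 replicate 2 the 3 lower in C4-2 became 5, and without C4-2 replicate 1 the 5 higher in MR49F against C4-2 became 3. TUT7, a uridylyltransferase that acts on let-7 precursors, had 175, 184 and 197 CPM in MR49F, 39.5, 52.9 and 47.8 CPM in C4-2, and 71.0, 62.1 and 61.9 CPM in LNCaP. TUT7 was 2.85-fold higher in MR49F than in LNCaP (log2 1.51, adjusted p = 8.96e-11), and both TUT7 and its paralog TUT4 fell in C4-2, by 0.50 and 0.49 on the log2 scale. HMGA1, a chromatin protein and let-7 target, was higher in MR49F by 0.94 (adjusted p = 2.43e-07). IGF2BP3, an RNA-binding protein and let-7 target, was higher in C4-2 than in LNCaP by 1.44 (adjusted p = 1.58e-08) and MIRLET7BHG, the host transcript of let-7 genes, by 1.02 (adjusted p = 1.11e-04). AGO2, which carries microRNAs, had no call (log2 0.05 in MR49F and -0.25 in C4-2), and in C4-2 it became a lower call without C4-2 replicate 2 (log2 -0.40).

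CD44 (ENSG00000026508, chromosome 11, 35138870 to 35232402, plus strand) had 0, 0 and 0 counts in MR49F, 10, 0 and 3 in C4-2, and 3, 1 and 0 in LNCaP. CD44 did not pass the count filter, and with no filter it had an adjusted p of 0.121 in MR49F against LNCaP, 0.714 in C4-2 against LNCaP and 0.0204 in MR49F against C4-2. No fold is given, since the higher lines held few counts as well. PROM1 (ENSG00000007062, chromosome 4, 15963076 to 16084378, minus strand) had 1 count in all, in C4-2 replicate 1.

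Genes that make or bind CD44 ligands, link it to actin or splice it were measured although CD44 was nearly absent. Of 9 tested (13 listed), 0 were higher and 7 lower in MR49F against LNCaP (median log2 -0.36), 4 higher and 3 lower in C4-2 against LNCaP (median -0.14), and 0 higher and 7 lower in MR49F against C4-2 (median -0.55). Over all tested genes the shares higher and lower were 24.1% and 22.8%, 26.2% and 23.5%, and 29.9% and 31.1% in the same order. Moesin (MSN) and radixin (RDX) tether CD44 and other membrane proteins to the cytoskeleton. In MR49F they fell by 1.47 (SE 0.0908, adjusted p = 3.01e-11) and 0.76 (SE 0.0899, adjusted p = 6.37e-07) on the log2 scale. Their falls in C4-2 were 0.28 for MSN and 0.45 for RDX (adjusted p = 0.00891 and 2.62e-04). CD74, the invariant chain that also pairs with CD44 as a cytokine receptor, had 0 counts in every MR49F library, 23.4, 20.6 and 19.5 CPM in C4-2, and 0.320, 0.227 and 0.138 CPM in LNCaP. CD74 passed the count filter through C4-2 alone, where it had to be high. Of the other 8 tested genes of the CD44 list, 3 were higher and 3 lower in C4-2 against LNCaP. In MR49F, 0 of those 8 were higher and 6 lower against either line. IGF2BP2, 1 of the 4 let-7 pathway genes called higher in C4-2, also passed through C4-2 alone. Without IGF2BP2, 5 let-7 pathway genes were higher and 3 lower in MR49F against C4-2. ESRP1, a splicing regulator that favours epithelial CD44 isoforms, was higher in C4-2 by 0.86 (adjusted p = 1.73e-08). The protease ADAM10 in MR49F (log2 0.03) and NF2 in C4-2 (log2 -0.15) had no call.

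Other progenitor and surface markers were compared in the same way. Of 12 tested (17 listed), 10 were higher and 0 lower in C4-2 against LNCaP (median log2 1.04, against 0.00 over all tested genes, of which 26.2% were higher and 23.5% lower), whereas 3 were higher and 4 lower in MR49F against LNCaP (median -0.15), and 2 were higher and 9 lower in MR49F against C4-2 (median -1.06). ALDH1A1, NES and ABCG2 passed the count filter through C4-2 alone, where they had to be high. Of the other 9 tested genes, 8 were higher in C4-2 against LNCaP. In MR49F against C4-2, 2 of those 9 were higher and 6 lower, while the medians above include all 12. Over all tested genes 24.1% were higher and 22.8% lower in MR49F against LNCaP, and 29.9% and 31.1% in MR49F against C4-2. ALDH1A1, the retinal dehydrogenase used to mark progenitor cells, had 7.61, 7.72 and 7.58 CPM in C4-2 and 0 counts in all 3 LNCaP libraries, and its 431 counts in C4-2 were at least 64.6-fold above a floor of 3 counts over the LNCaP libraries. MR49F also held 0 counts of ALDH1A1. The intermediate filament NES had 341 counts in C4-2 and 10 in LNCaP, means of 5.66 and 0.381 CPM. ALCAM, a cell adhesion molecule, had 55.2, 55.6 and 62.8 CPM in MR49F, against 157, 157 and 168 CPM in LNCaP, a fall of 1.47 on the log2 scale (SE 0.0845, adjusted p = 8.55e-12). The integrin ITGA6 fell by 0.49 in MR49F and had no call in C4-2 (log2 -0.08). LY6E and the R-spondin receptor LGR4 were higher in MR49F, by 1.39 (adjusted p = 4.92e-09) and 1.15 (adjusted p = 6.76e-09), while ITGA2 had no call (log2 -0.13).

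Per kilobase of exon, the scale on which levels of different genes can be compared, MYC was the most abundant of the 10 in every line, at 127 CPM per kilobase in MR49F, 58.3 in C4-2 and 88.0 in LNCaP. BMI1 stood at 17.2 CPM per kilobase in MR49F, 15.2 in C4-2 and 10.1 in LNCaP, and SOX4 at 12.5, 12.6 and 15.3 in the same lines. SOX12 stood at 15.5 CPM per kilobase in MR49F, 7.11 in C4-2 and 12.2 in LNCaP. SOX9, at 8.48 in C4-2, was above SOX12 there, yet it was at 0.0201 in MR49F and 1.97 in LNCaP. KLF5 exceeded KLF4 in MR49F (3.66 against 0.263 CPM per kilobase), and KLF4 exceeded KLF5 in C4-2 (4.29 against 0.768). In LNCaP the KLF pair was close, at 1.22 for KLF4 and 1.08 for KLF5.

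**Figure D4:**
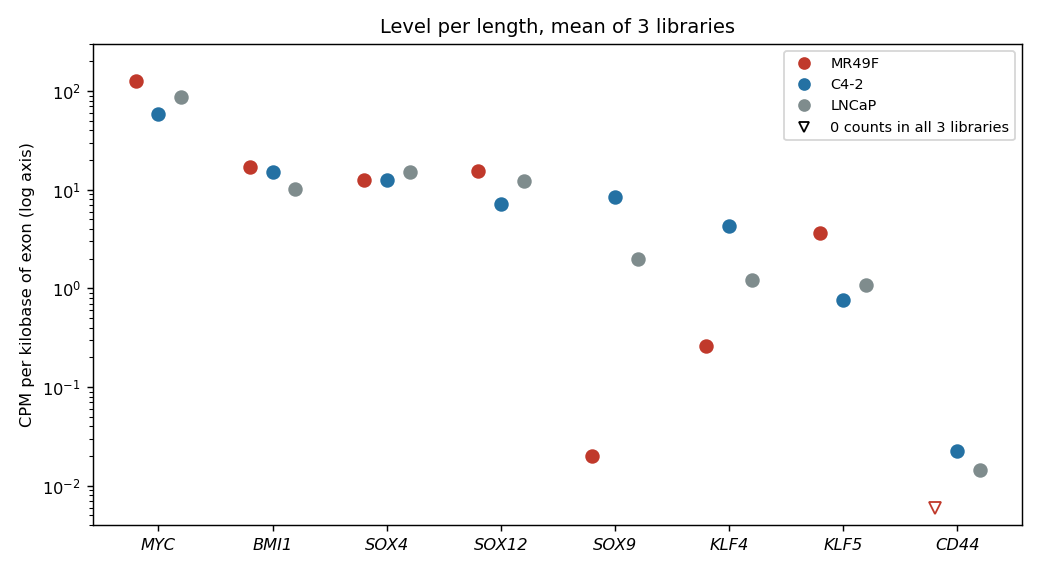
Mean level of each gene in CPM per kilobase of exon (y axis, log scale) in MR49F, C4-2 and LNCaP, each point the mean of 3 libraries; the open triangle marks 0 counts of CD44 in MR49F and is placed at the bottom of the axis. MYC is highest in each line, and SOX9 spans the widest range, 0.0201 to 8.48; PROM1 and LIN28B are not drawn.

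Genes near the members were examined after the member values were known. Within 1 Mb of SOX9, 3 genes were tested: SLC39A11, a zinc transporter, was lower in MR49F than in LNCaP (log2 -0.39, adjusted p = 0.00843) and higher in C4-2 (log2 1.13, adjusted p = 1.46e-08). The SLC39A11 call in MR49F ended without MR49F replicate 1 or LNCaP replicate 2. The long non-coding RNA LINC00511 had no call in MR49F (log2 0.64, adjusted p = 0.122) and was higher in C4-2 (log2 3.09, adjusted p = 5.75e-10), so SOX9 stood near 0 in MR49F while SLC39A11 averaged 19.9 CPM and LINC00511 1.61 CPM there. Near KLF5, DIS3, an exosome ribonuclease, followed the direction of KLF5, higher in MR49F (log2 0.40, adjusted p = 0.00516) and lower in C4-2 (log2 -0.41, adjusted p = 0.00516). MZT1, a gamma-tubulin ring component, did so too (log2 0.51, adjusted p = 7.45e-04 in MR49F and -0.31, adjusted p = 0.0249 in C4-2), with the C4-2 call lost without C4-2 replicate 3 or LNCaP replicate 1 or 2. Their log2 fold changes in MR49F were below the 1.72 of KLF5. The other 2 tested genes near KLF5 had no call against LNCaP.

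PVT1, the long non-coding RNA beside MYC, was higher in MR49F (log2 0.35, adjusted p = 0.00573), a call that ended without MR49F replicate 1, and had no call in C4-2 (log2 -0.12, adjusted p = 0.334). PCAT1, another long non-coding RNA near MYC, had no call in MR49F (log2 -0.06) and was higher in C4-2 (log2 0.60, adjusted p = 0.0029), where MYC fell, and the other 2 tested genes near MYC had no call against LNCaP. CDKAL1, the 1 tested gene near SOX4, had no call in MR49F (log2 -0.09) and was higher in C4-2 (log2 0.58, adjusted p = 0.00104). Of 4 genes tested near KLF4, 0 were called in either derivative against LNCaP. Of 19 genes tested near SOX12, 3 were higher and 7 lower in MR49F, and 3 were higher and 11 lower in C4-2. Of 7 tested near BMI1, 0 were called in MR49F, and 4 were higher and 1 lower in C4-2. For comparison, 24.1% of all tested genes were higher and 22.8% lower in MR49F against LNCaP. In C4-2 against LNCaP, 26.2% were higher and 23.5% lower. Whether any neighbourhood departed from these shares was not tested.

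The genes whose levels tracked each member most closely over the 9 libraries were ranked by Pearson's r of log2 CPM among 12330 candidates. Since the libraries form 3 lines, r mostly reflects the order and spacing of 3 levels and is given as a description. For SOX9 they were ZNF608 (r = 0.997) and SPECC1L (r = 0.996). ZNF608, at 0.0792 CPM in MR49F, 6.76 CPM in C4-2 and 2.92 CPM in LNCaP, was as scarce as SOX9 in MR49F. For KLF4 they were CARD10 and BRDT (both 0.994), for KLF5 ANKS1B (0.991) and SERP1 (0.987), and for SOX12 TPD52L2 (0.995) and SNHG3 (0.993). For MYC they were SLC45A3 (0.997), an androgen-regulated prostate gene at 742 CPM in MR49F, 151 CPM in C4-2 and 346 CPM in LNCaP, and BEX3 (0.996). For SOX4 they were RAB6D (0.984) and STXBP4 (0.983), and for BMI1 TBPL1 (0.976) and CNBP (0.9753).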

How the data were processed

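The authors deposited whole-number counts, 1 for each Ensembl gene and library, not normalized. Per the submitters' processing notes the build was GRCh38.p12 and the tools included HTSeq 0.6.1 and TopHat2, with edgeR 3.12.1 and FastQC 0.11.3, and the labels' protocols name a stranded TruSeq kit read in pairs on a HiSeq2500. The sources used here give no strand setting, annotation release or filter. The 9 columns named for MR49F, C4-2 and LNCaP were used. A further 3 columns match no sample title and were used in no step. Of 57992 entries, 56948 had a symbol and 57388 an entry in GENCODE 29 (GRCh38), used for coordinates and exon length.

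All genes were fitted together in edgeR 4.0.16 (R 4.3.3; quasi-likelihood, robust, TMM, filterByExpr by line, 1 mean per line, 6 residual degrees of freedom, common biological coefficient of variation 0.0817). SE is the absolute log2 fold change over the square root of F. Values are CPM, unless a line had 3 or fewer counts: then the ratio of scaled pooled counts with a 95% exact binomial interval, or a bound from a floor of 3 counts over the line, is given, covering counting error only. Putting such genes at their bound or ratio left every list median unchanged to 2 decimals. These genes lay far from the median in either form, so the swap could not move it and is no support for the medians. No replicate pair agreed within sampling noise. The chi-square per degree of freedom was 24.0 and 9.96 for C4-2 replicate 1 against C4-2 replicates 2 and 3. It was 5.84 between C4-2 replicates 2 and 3, 2.07 to 5.56 within MR49F and 1.49 to 1.80 within LNCaP. The part of depth in these values was not tested.

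Members, gene lists and tests were chosen with earlier results of these data known. In each list and comparison with LNCaP the text names up to 2 called genes a direction with the largest change (at least 5 CPM in the higher line, no overlap of replicates) and the most abundant gene without a call. MR49F against C4-2 is given as counts. A comparison of C4-2R with C4-2, planned at the outset, was not made. Alternatives were DESeq2 1.42.0, RLE scaling, other count filters, only the 6 libraries compared, a replicate block, C4-2 replicate 1 thinned to 20.1% of its counts and each library left out. Recounting the lists and neighbours under them was added after seeing the data.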

Additional observations from a re-analysis of the deposited data

Results flagged for a closer look

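For 5 members the changes in MR49F and in C4-2, each against LNCaP, were called in opposite directions. The difference between them is the MR49F against C4-2 comparison in edgeR's quasi-likelihood fit. A member was flagged only if that comparison was also called, so the adjusted p-values below repeat the member results and are no separate support. Both changes share the LNCaP libraries. For SOX9 the difference was -8.58 on the log2 scale (SE 0.319, adjusted p = 4.09e-15), lower in 3 of 3 MR49F libraries than in every C4-2 library. For KLF4 it was -4.05 (SE 0.217, adjusted p = 1.72e-12), also lower in 3 of 3. For KLF5 it was 2.28 (SE 0.191, adjusted p = 2.25e-09), for SOX12 1.10 (SE 0.0922, adjusted p = 2.15e-09) and for MYC 1.12 (SE 0.0737, adjusted p = 5.01e-11), each higher in 3 of 3 MR49F libraries. The size for SOX9 rests on 2 counts in MR49F, and the C4-2 side of KLF5 was lost in 11 of 16 settings.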

How the results depend on the processing

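Of 336 member results under 16 alternatives, 322 kept their direction and their side of the threshold. KLF5 in C4-2 against LNCaP lost its call in 11 settings; in the replicate block its log2 value was -0.55 (adjusted p = 0.0712), which left 6 of 7 members called, and the block changed no other member's call. Same-numbered replicates of different lines did not deviate together (correlations -0.0832 to 0.0562, 0 of 9 over 0.1), so the numbers were not taken as pairs. Leaving out each library in turn gave 7 members called in MR49F against LNCaP, 6 to 7 in C4-2 against LNCaP and 5 to 6 in MR49F against C4-2. SOX4 in MR49F against C4-2 turned sign without MR49F replicate 2 (0.0234) and without C4-2 replicate 2 (0.0327), with a range of -0.0578 to 0.0327 over the libraries left out. SOX9 without MR49F replicate 2 was -9.61 against LNCaP and -11.69 against C4-2.

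Among 1488 results of other named genes, 1436 kept direction and side, 9 lost a call, 28 gained one and 15, none called, turned sign. In MR49F against LNCaP these were CBX6 with no filter (-0.0095), 6 libraries (-0.005), C4-2 replicate 1 thinned (-0.0018), and without MR49F replicate 2 (-0.0152), C4-2 replicate 2 (0), LNCaP replicate 1 (-0.0076) or 3 (-0.0015; up to 0.0338 without others), and ADAM10 without MR49F replicate 3 (-0.0334) or LNCaP replicate 1 (-0.0038; up to 0.062), and PCAT1 without MR49F replicate 3 (0.0032) or LNCaP replicate 3 (0.0138; down to -0.1651). In C4-2 against LNCaP they were NRSN2-AS1 (0.0097; down to -0.3568 without others), SP3 (0.0326; -0.1813) and ITGA6 (0.0151; -0.1704) without C4-2 replicate 1, and PHC3 without C4-2 replicate 2 (-0.0935; up to 0.2867). With no filter the all-gene median moved to 0.10 in C4-2 against LNCaP and -0.16 in MR49F against C4-2. On unscaled totals 5 of 24 levels moved by more than 1 SD: SOX4 92.6, SOX12 58.3, MYC 274 and BMI1 44.9 CPM in LNCaP, and MYC 371 CPM in MR49F. Causes were not tested. Depth limits SOX9 and KLF4 in MR49F, CD44, PROM1 and LIN28B, where a line held 25 counts or fewer.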
